A study of Mus musculus with 13 samples.

Results

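The genes that encode voltage-gated sodium and calcium channels and the potassium channels were followed through DRIP-seq peak lists of mouse neuroblastoma cells. Members were all protein-coding gene records of the GENCODE vM1 annotation of build mm9 whose symbol begins with Kcn, with Cacn, or with Scn and a digit. This rule uses names alone and gave 137 of 22380 gene records, which stand for 134 symbols, because Kcnb2, Kcnh8 and Scn8a have 2 records each. A member was called occupied in a library when at least 1 peak overlapped the gene extended by 1 kb on each side.

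DRIP-seq sequences the DNA that the S9.6 antibody pulls down as hybrids with RNA, and its peaks mark R-loop regions, in which RNA is paired with 1 DNA strand and the other strand is left single. The study asked how R-loops change when N2a cells lose DDX1, of the DEAD-box family of RNA helicases, or EXOSC3, a structural subunit of the RNA exosome. N2a is a mouse neuroblastoma line with neuronal features. Lists of 9 untreated libraries were compared: 3 from cells given a scrambled control siRNA (siScramble, genotype WT), 3 given siRNA against DDX1 (siDDX1, DDX1 knockdown) and 3 given siRNA against EXOSC3 (siEXOSC3, EXOSC3 knockdown), with 3 plates seeded per condition in the study's methods. For each group, 1 further library came from genomic DNA treated with RNase H before the pulldown, an enzyme that degrades RNA within hybrids. All groups share the line, the transfection and the cutting of DNA by 5 restriction enzymes, and a knockdown by siRNA lowers its target without removing it.

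Voltage-gated channels open when the membrane potential changes. Sodium and calcium channel pores carry the upstroke of the action potential and the calcium entry that triggers transmitter release, and potassium channels repolarise the cell and set its resting potential. Pore subunits work with smaller auxiliary subunits that govern their trafficking and gating. Many of these genes are used in neurons and many are long. A longer gene has more room to meet a peak by position alone, so the number of occupied members in a library stands beside the number expected from all genes of like length. Other shares stand beside all genes with no matching on length, and the median length was 37.1 kb in members and 15.4 kb in all genes.

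The sample titles and the names inside the peak lists gave different treatments in 12 of 12 lists, in 1 rotation. Groups here follow the titles and are called "labelled". By the peak names, libraries labelled siScramble would be siDDX1, those labelled siDDX1 would be siEXOSC3 and those labelled siEXOSC3 would be siScramble. This rotation leaves every test over all 3 groups, and every test against RNase H, as it is, and changes which pair a pairwise difference stands for. Untreated lists held 23882 to 42571 peaks and RNase H lists held 3811 to 8034. The relative sequencing depth recovered from the peaks' background lay between 0.785 and 1.86 times the untreated mean, with siDDX1 replicate 1 the deepest. The 3 RNase H libraries were at 1.62 to 2.30 times that mean. Of 16 markers of neuroblastoma cells and neurons, 6 had a peak in all 9 untreated libraries, 4 in some and 6 in none. The sympathetic lineage factors Phox2a and Hand2 were among those marked in all 9. Of 8 markers of other cell types, 0 had a peak in all 9, 2 in some and 6 in none. Of all genes, 26.2% had a peak in all 9 and 50.1% in none, although peaks are not a measure of RNA.

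Kcnj14, Kcnk3 and Kcnh2 were the 3 members with a peak within 1 kb of the annotated start in 9 of 9 untreated libraries. Kcnq5 was the longest member with no peak in any of the 12 libraries. The 300 bases of mm9 before the starts of Kcnk3, Kcnh2 and Kcnq5 are shown to set marked starts beside an unmarked one, on the strand of the gene, 5′ to 3′, with CG dinucleotides in capitals. Kcnk3 encodes an acid-sensitive leak channel, with the window chr5:30890243-30890542 on the plus strand. Kcnh2 encodes the pore of a delayed rectifier that repolarises heart cells, with the window chr5:23857423-23857722 on the minus strand. Kcnq5 encodes a pore of the M current, with the window chr1:21952024-21952323 on the minus strand.
Kcnk3: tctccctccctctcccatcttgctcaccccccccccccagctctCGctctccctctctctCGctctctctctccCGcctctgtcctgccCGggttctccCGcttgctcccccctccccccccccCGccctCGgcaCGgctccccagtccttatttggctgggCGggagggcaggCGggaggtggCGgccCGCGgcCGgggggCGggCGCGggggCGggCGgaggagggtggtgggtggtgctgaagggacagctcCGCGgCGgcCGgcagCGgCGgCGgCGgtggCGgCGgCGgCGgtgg
Kcnh2: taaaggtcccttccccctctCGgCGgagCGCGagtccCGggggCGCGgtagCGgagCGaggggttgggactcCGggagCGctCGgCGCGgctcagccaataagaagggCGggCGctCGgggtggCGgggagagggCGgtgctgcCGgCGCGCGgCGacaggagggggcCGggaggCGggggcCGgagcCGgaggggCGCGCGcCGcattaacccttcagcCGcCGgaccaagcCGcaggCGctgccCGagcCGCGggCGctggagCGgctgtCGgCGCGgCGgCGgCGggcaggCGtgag
Kcnq5: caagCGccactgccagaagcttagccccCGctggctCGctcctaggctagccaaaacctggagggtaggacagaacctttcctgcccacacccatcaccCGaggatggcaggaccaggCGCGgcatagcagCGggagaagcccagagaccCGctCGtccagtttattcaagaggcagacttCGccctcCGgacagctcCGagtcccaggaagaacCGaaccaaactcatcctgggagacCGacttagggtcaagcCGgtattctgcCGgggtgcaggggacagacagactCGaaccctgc

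Marked starts did not share 1 composition. Kcnh2 held 48 CG dinucleotides in its window and Kcnk3 held 31, while Kcnq5, with no peak, held 17. GC made up 78.7%, 77.7% and 61.7% of the windows of Kcnh2, Kcnk3 and Kcnq5. Kcnj14 went the other way, since from 300 bases before to 500 bases after its start it had 56% GC and 1 CG per 100 bases, against 69.4% and 9.25 at unmarked Kcnq5. However, the region of 5020 bases over the Kcnj14 start also meets a neighbouring gene, Grwd1. Those over the starts of Kcnk3 and Kcnh2 meet no other protein-coding gene. Peaks covered part of the Kcnh2 window in 3 of 3 libraries labelled siDDX1, 3 of 3 labelled siEXOSC3 and 0 of 3 labelled siScramble, where the start peaks lay within 1 kb but outside it. They covered part of the Kcnk3 window in 2 libraries labelled siScramble and 1 of each other label. At Kcnh2 the split concerns where the peaks fall, since its start had a peak in 9 of 9 libraries. Neither window was tested between groups, and no share over all gene starts stands beside these counts. Fold enrichment of a start peak, the ratio of pileup to local background that the peak caller wrote, was highest at Kcnj14, an inward rectifier. It was 7.62, 12.4 and 16.2 in the libraries labelled siScramble, 14.8, 7.38 and 9.69 in those labelled siDDX1, and 11.8, 13.5 and 24.7 in those labelled siEXOSC3. Kcnk3 had 7.03, 6.81 and 10.8, then 10.9, 4.30 and 5.18, then 6.83, 8.56 and 9.01 in the same order. Kcnh2 had the narrowest spread, from 4.37 to 6.83 over the 9 libraries. At all 3 starts the ranges of fold in the groups overlapped, and no RNase H library had a peak there.

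Channel genes had a peak less often than all genes, in every untreated library. Between 21 and 39 of the 137 members were occupied per untreated library, or 23.2% ± 3.99 (SD, n = 9), against 38.5% ± 4.04 (SD, n = 9) of all genes. Had members been occupied at the rate of all genes in the same of 20 length bins, 48.2 to 64.6 members would have had a peak. The ratio of observed to expected was 0.547 ± 0.0530 (SD, n = 9) and ranged from 0.436 to 0.608. Starts were further below, with 7 to 20 members against 22 to 38.6 expected and a ratio of 0.398 ± 0.0605 (SD, n = 9). Bases covered by peaks gave 0.391 ± 0.0540 and numbers of peaks 0.457 ± 0.0601 (SD, n = 9 each). By group, the ratio of occupied members was 0.511 ± 0.0679 in the libraries labelled siScramble, 0.578 ± 0.0310 in those labelled siDDX1 and 0.551 ± 0.0481 in those labelled siEXOSC3 (SD, n = 3 each), and these ranges overlapped. By covered bases the 3 libraries labelled siEXOSC3 had ratios of 0.433, 0.485 and 0.439, above the 0.329 to 0.411 of the other 6. Peaks over members made up 0.329% ± 0.0210 of all covered bases there, 0.268% ± 0.0170 in the libraries labelled siScramble and 0.278% ± 0.0308 in those labelled siDDX1 (SD, n = 3 each). The shares of 1 siDDX1 and 1 siEXOSC3 library crossed, at 0.313% and 0.308%, and no test is given for a sum over members.

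**Figure D1:**
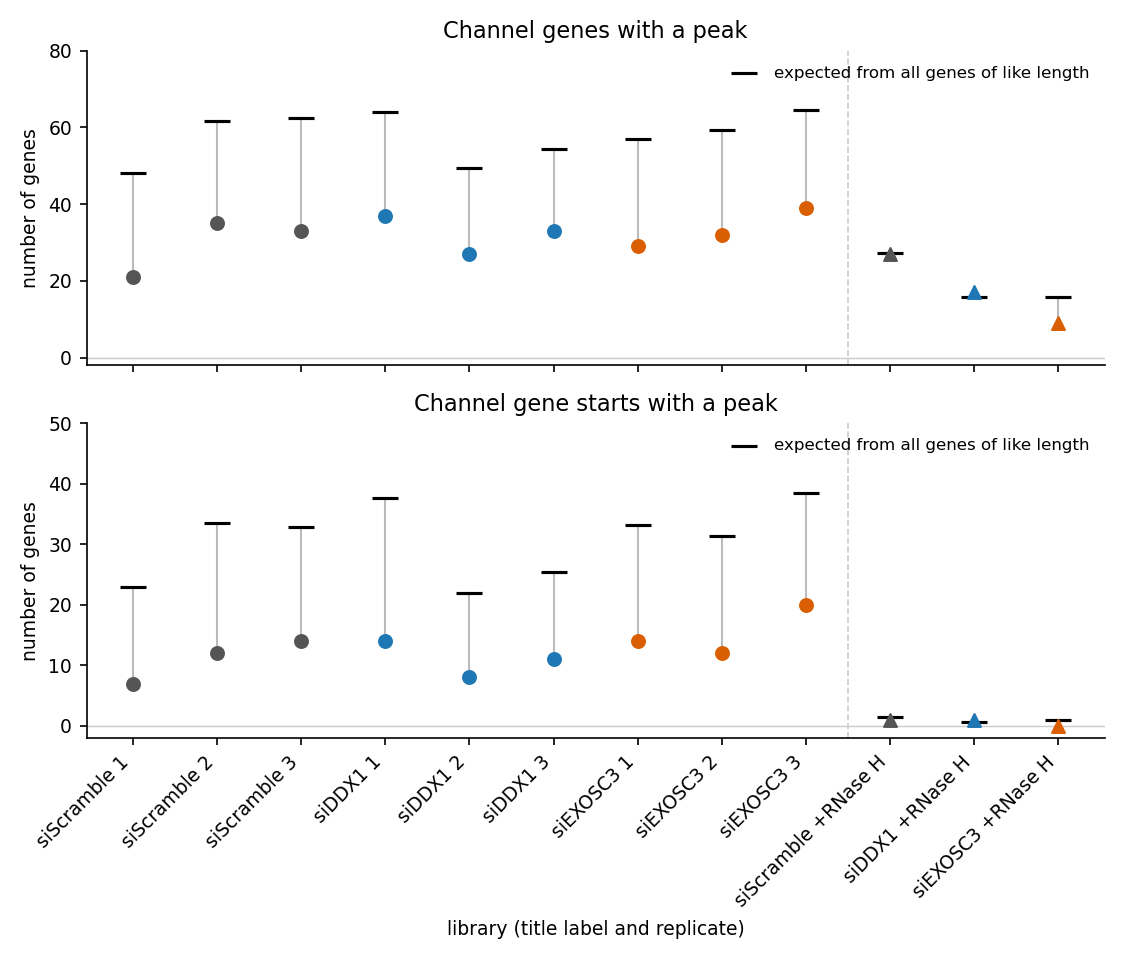
Number of channel genes (top) and of channel gene starts (bottom) with a peak in each of 12 libraries, on a vertical axis of genes. Circles are untreated libraries, triangles are RNase H libraries, colours are groups, and the black bar of each library is the number expected from all genes in the same 20 length bins. The 9 untreated libraries lie below their bars, at 21 to 39 members, while the RNase H libraries labelled siScramble and siDDX1 lie at theirs.

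The RNase H libraries gave a different picture. They had a peak over 27, 17 and 9 members (labelled siScramble, siDDX1 and siEXOSC3), where length alone gives 27.3, 15.7 and 15.9. The ratios were 0.990, 1.08 and 0.566, with 1 library per group and so no spread. Thus the libraries labelled siScramble and siDDX1 met members about as often as genes of like length, and the one labelled siEXOSC3 did so less often.

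Members fell short in each length class. Of 28 members under 10 kb, 25% had a peak in at least 1 untreated library, against 34.4% of all such genes. The shares were 33.3% against 59.5% at 10 to 30 kb (33 members), 40% against 63.3% at 30 to 100 kb (35 members), 33.3% against 56.5% at 100 to 300 kb (24 members) and 23.5% against 47.9% at 300 kb or more (17 members). Peaks of the RNase H libraries rose with length instead. They met 3.57% of the shortest members and 58.8% of the longest, close to the 3.09% and 69.3% of all genes in those classes.

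Members' starts were not poor in GC. GC content, counted from 300 bases before to 500 bases after the start, had a median of 59.1% over members and 56.5% over all genes. Genes with GC-rich starts had start peaks most often, and in the highest of 4 GC classes of about equal gene number (at least 63.6% GC) 13 of 47 members had a start peak in any untreated library, or 27.7%, against 61.5% of all genes. In the next class 13.6% of 44 members did, against 46.7%. The lowest class ran the other way, with 2 of 19 members, or 10.5%, against 4.57%. CG dinucleotides were sparser, at a median of 4.25 per 100 bases in members and 4.5 in all genes. The gap was wider for CG observed over the number expected from the G and C content, at a median of 0.473 in members and 0.575 in all genes. Sites of the 5 restriction enzymes were about as dense in members, at a median of 1.44 per kb, as in all genes, at 1.51.

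**Figure D2:**
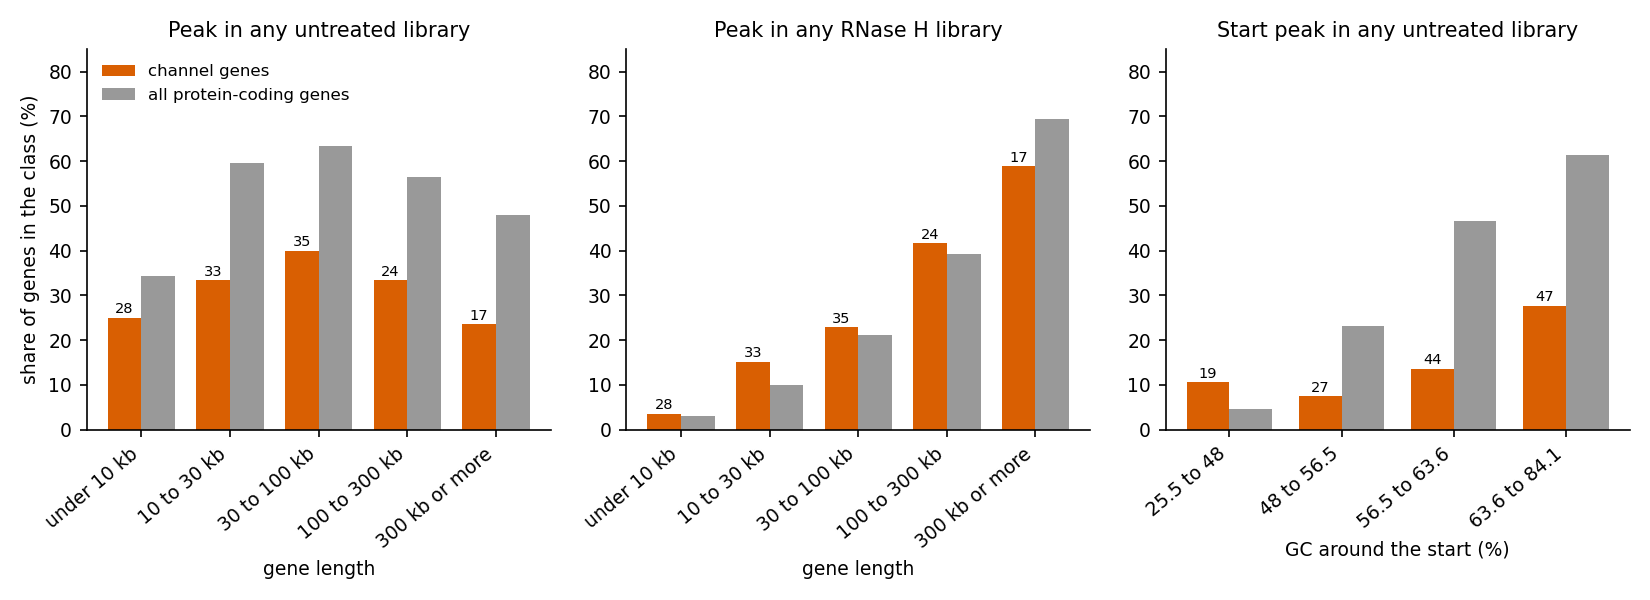
Share of genes, in percent, with a peak in any untreated library by gene length (left), with a peak in any RNase H library by gene length (middle), and with a start peak in any untreated library by GC content around the start in 4 classes of about equal gene number (right). Orange bars are channel genes, with their number above, and grey bars are all protein-coding genes. Orange lies below grey in all 5 length classes on the left, at 23.5% against 47.9% for genes of 300 kb or more, and near it in the middle.

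Occupied members were a minority, and the split was sharp. Over the 9 untreated libraries, 93 members (67.9%) had no peak in any library, 27 had one in 1 to 8 libraries and 17 (12.4%) had one in all 9, where all genes gave 50.1% with none and 26.2% with all 9. Of the 93, 76 had no peak in the RNase H libraries either, beside 10255 of the 11215 genes of the annotation without an untreated peak. Having no peak in any of the 12 libraries thus applied to 55.5% of members and 45.8% of all genes. A peak list holds only regions past the caller's threshold, so a gene without a peak is one without a called peak at this depth, not one shown to lack hybrids.

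Among sodium channels, the pore subunits that carry the neuronal sodium current were nearly empty. Of 11 records, 9 had no untreated peak, including the brain channels Scn1a, Scn2a1 and Scn3a. Scn8a, the channel of the axon initial segment, had peaks in 8 of 9 libraries and Scn9a, of sensory neurons, in 4 of 9. No pore subunit had a start peak, and the ratio to the length expectation was 0.260 ± 0.133 (SD, n = 9). Of the 4 beta subunits, Scn3b had a peak in all 9 libraries, and the ratio was 0.897 ± 0.228 (SD, n = 9).

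Calcium channel pores were met about as often as genes of like length. Of 10, Cacna1c, an L-type pore, and Cacna1a, the P/Q-type pore of synaptic terminals, had peaks in all 9 libraries, 5 others had them in some, and the ratio was 1.07 ± 0.200 (SD, n = 9). Cacna1b, the N-type pore, had peaks in 8 of 9 libraries. These peaks lay inside the genes, and at the annotated starts the ratio was 0.0417 ± 0.125 (SD, n = 9), with 1 of 10 members ever marked there. The alpha2delta subunits, which bring channels to the surface, had peaks in 1 of 4 genes, Cacna2d4, by 31 to 48 bases at the edge of the extended gene. The beta subunits gave a ratio of 1.09 ± 0.211 and the gamma subunits 0.497 ± 0.245 (SD, n = 9 each), each list having 8 or fewer members.

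Among potassium channels, the 42 records of voltage-gated pores were the largest family. Of these, 33 had no untreated peak, among them every Kcna record, and 6 had one in all 9 libraries, among them Kcnh2, Kcnh4 and Kcnh3. The ratio was 0.463 ± 0.0605 (SD, n = 9). Of 15 inward rectifiers, which hold the resting potential, Kcnj14, Kcnj12 and Kcnj6 were marked in all 9 libraries and 10 in none (ratio 0.583 ± 0.0988). Of 14 Kcnk leak channels, Kcnk3 and Kcnk15 were marked in all 9 and 10 in none (0.485 ± 0.0950). Of 12 records grouped by name as calcium- or sodium-activated channels and their beta subunits, none was marked in all 9 and 8 in none (0.341 ± 0.184). Of 13 other auxiliary subunits, Kcnip3 and Kcnab2 were marked in all 9 (0.712 ± 0.183, SD, n = 9 for each).

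The 27 members marked in 1 to 8 libraries ranged from single short peaks to regions of over 2 kb. Kcnmb4 had a region of 3131 bases over its start in 7 libraries, Cacnb3 one of 2778 bases at its end in 7 and Scn8a one of 2596 bases at its end in 8. The Cacnb3 region also meets Ddx23. Kcnd1, a pore of the A-type current, had 1 region, at its start, in 8 of 9 libraries, with 285 to 926 bases where called. Cacng3, a gamma subunit, had 14 regions in 7 libraries, and its covered bases ran from 0 in siScramble replicate 1 and siDDX1 replicate 1 to 2635 in siDDX1 replicate 2, the library that otherwise covered fewest bases of members. Kcnj13, an inward rectifier of epithelia, had 2699 and 1060 bases in siScramble replicates 2 and 3 and 0 to 850 elsewhere. Scn8a, with 11 regions and none at its start, ran from 0 in siDDX1 replicate 2 to 4600 in siEXOSC3 replicate 3. The T-type calcium pores were thinly marked, Cacna1h in 5 libraries, Cacna1i in 3 and Cacna1g in 1, at 271 to 1199 bases where called. Kcnh6 and Cacna1g were each marked in 1 library.

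Lists of related genes gave higher ratios. Of 30 other cation channels, such as the Hcn, Trp and ryanodine receptor genes, 8 had peaks in all 9 libraries and the ratio was 0.762 ± 0.105 (SD, n = 9). Of 14 channel partners, such as the ankyrins that anchor sodium channels, 4 did and the ratio was 1.16 ± 0.242 (SD, n = 9), at a median gene length of 486 kb against 37.1 kb for the members.

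The bases covered were concentrated in few members. Kcnj6 held 12.6% of all bases covered over members, 3 genes (Kcnj6, Kcnh2 and Kcnh4) held 34.0% and 10 held 70.0%. Kcnj6 encodes a G protein-gated inward rectifier of dopamine neurons. Its covered bases were 12050, 16121 and 21559 in the libraries labelled siScramble, 15699, 6613 and 9311 in those labelled siDDX1, and 6303, 11625 and 12234 in those labelled siEXOSC3. Kcnh2 had 8275, 11194 and 13667, then 14229, 7013 and 8463, then 10472, 10056 and 14424 bases in the same order. Kcnh4, an ether-a-go-go-like pore, had 10851, 9656 and 11951, then 14419, 4603 and 6867, then 9659, 13417 and 9243. For all 3 genes the groups overlapped, and siDDX1 replicate 2, among the libraries with the fewest peaks, had the lowest value at Kcnh2 and Kcnh4. As a share of the extended gene, the 17 fully marked members ran from 0.768% in Cacna1c to 46.7% in Kcnh4, with 31.9% in Kcnh2 and 45.1% in Kcnj14.

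**Figure D3:**
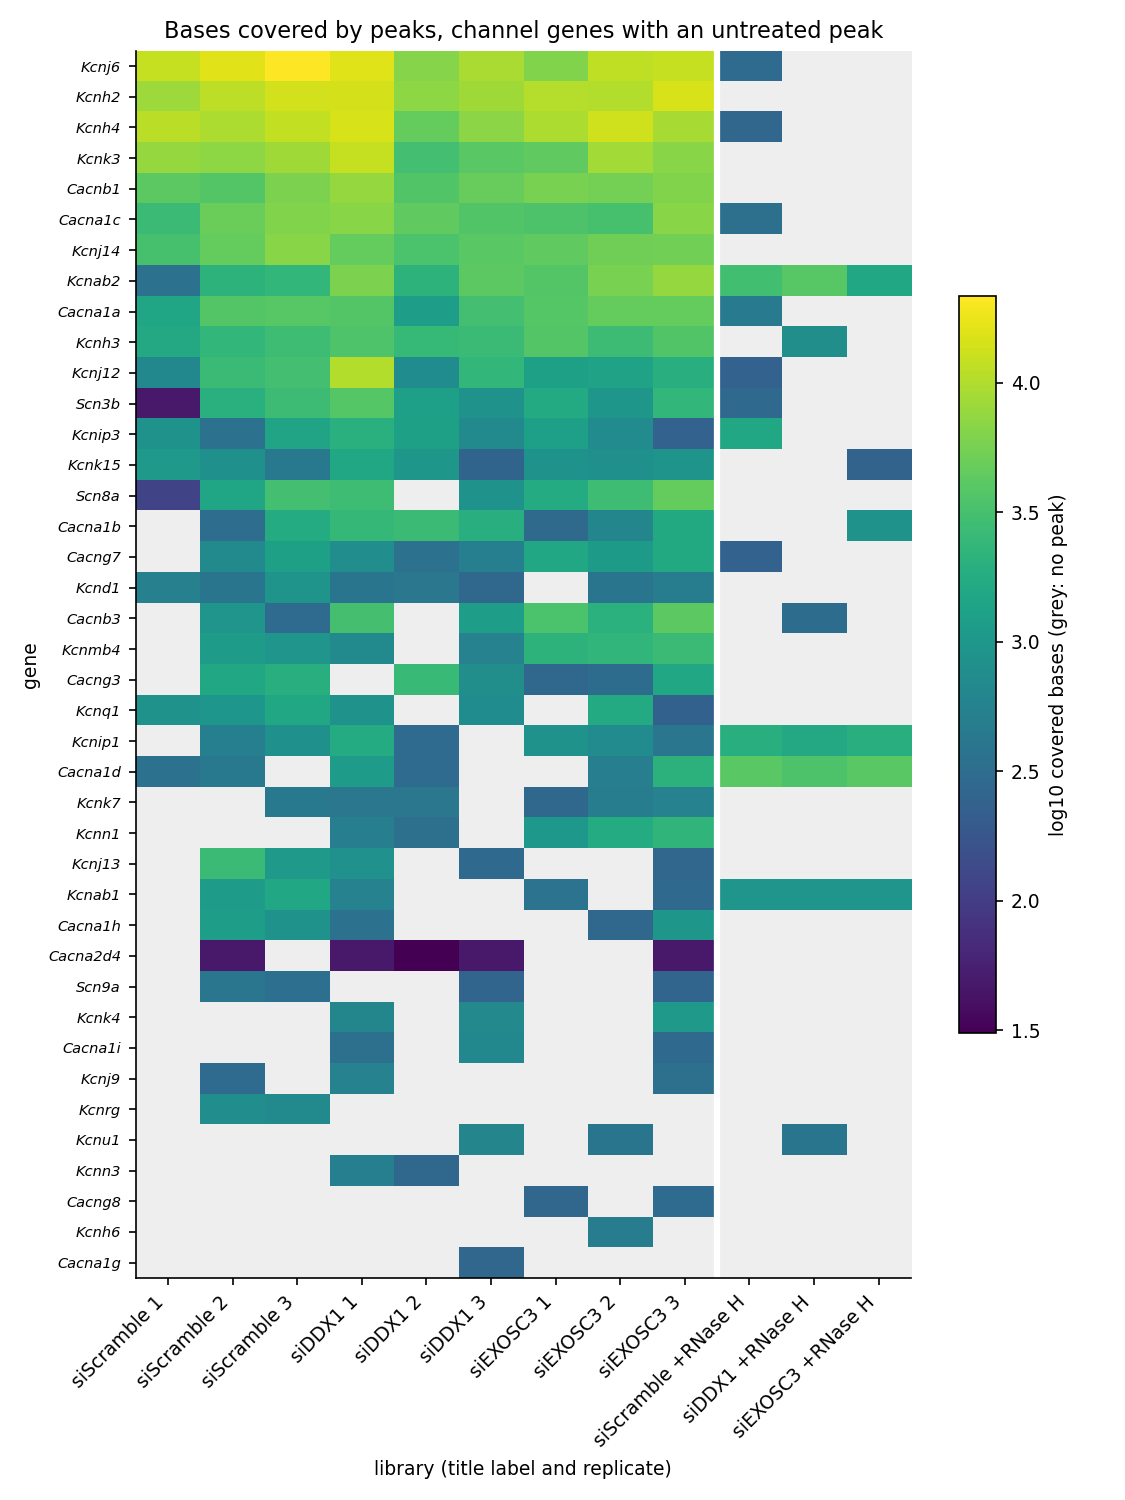
Bases covered by peaks (log10, colour) for 40 of the 44 channel genes with a peak in at least 1 untreated library, one line per gene, and the 12 libraries as columns, the 3 RNase H libraries at the right. Grey marks no peak. The upper 14 genes are coloured in all 9 untreated columns, and Kcnab2, Kcnip1, Cacna1d and Kcnab1 are the lines also coloured in all 3 RNase H columns.

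Merging overlapping peaks of all 9 untreated libraries gave 317 regions over members and 61334 over all genes. Regions over members were more often intronic, at 61.2% against 49.1%, and less often at an annotated start, at 10.1% against 14.0%, or over an internal exon, at 10.4% against 17.9%. Of the 317, 168 (53.0%) were called in 1 library only, against 44.3% over all genes, and 26 (8.20%) in all 9, against 11.4%. Another protein-coding gene was also met by 7.26% of them, against 8.39% over all genes. In 3 members every region did so: Kcnj13 (with Gigyf2), Kcnk15 (with Rims4) and Cacna2d4 (with Adipor2). The region of Kcnh3 called in all 9 libraries also meets Mcrs1, and that of Scn3b meets Gramd1b. The region over the Kcnab2 start, called in 8 libraries, also meets Nphp4.

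Kcnj6 carried its 34 regions entirely in introns. Their peaks lay between 34.9 and 114 kb from the start of a gene of 248 kb, 5 of them were called in all 9 untreated libraries, and neither its start nor its end had a peak. Cacna1c spread 32 regions over 604 kb. Of these, 23 were called in 1 library only and 1 in all 9, an intronic region at chr6:119056109-119059354, 88.5 kb from the start, with a mean fold enrichment of 9.52. Kcnh2 instead held 3 regions called in all 9 libraries, at the start and at 21.3 and 28.7 kb, both within 1 kb of other annotated transcript starts. Counting any annotated transcript start, 5 members had a start peak in all 9 libraries, Cacna1a among them, and the ratio over all members was 0.410 ± 0.0585 (SD, n = 9). Kcnk3 held a region of 10373 bases over its start, and at Kcnh4 1 region of 11529 bases ran across much of the gene. The highest mean fold among regions called in all 9 was 14.3, at the end of Cacnb1, a calcium channel beta subunit, in a region that also meets Arl5c.

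**Figure D4:**
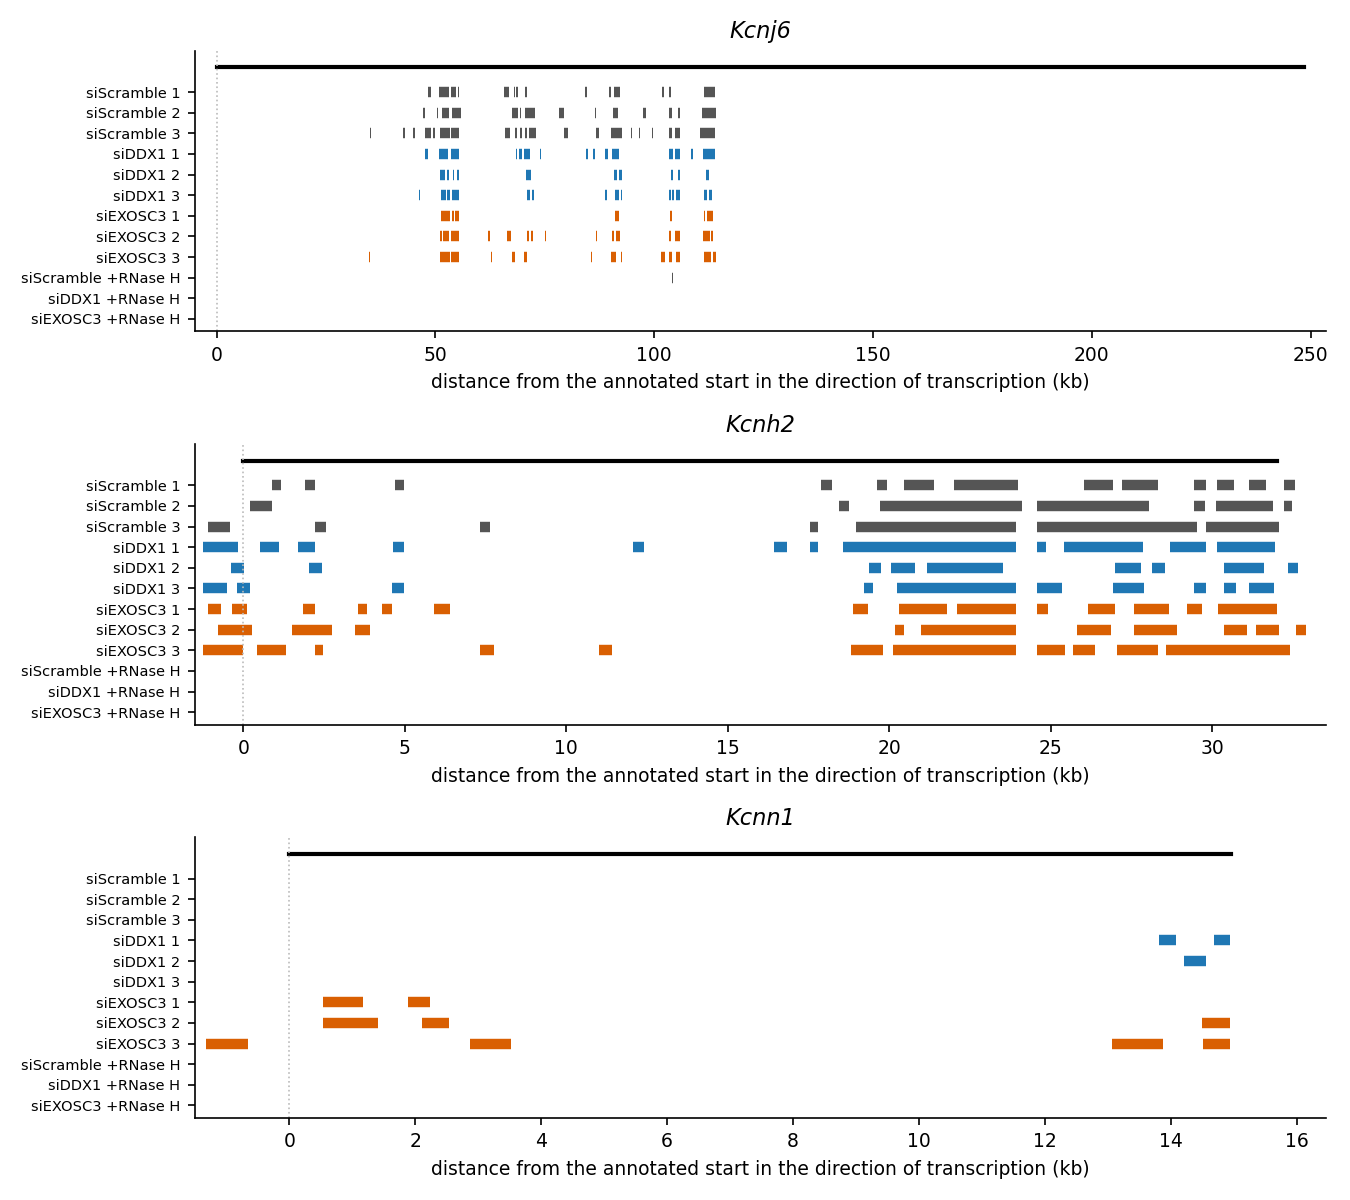
Peaks over Kcnj6, Kcnh2 and Kcnn1 in each of 12 libraries, by distance in kb from the annotated start in the direction of transcription. The black line is the gene, each coloured bar is a peak and colours are groups. Peaks of Kcnj6 sit between 34.9 and 114 kb in introns, those of Kcnh2 are dense in the last part of the gene and at the start with shorter ones between, and Kcnn1 has none in the 3 libraries labelled siScramble.

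After RNase H, peaks covered fewer bases in 13 of 61 members tested, beside 38.2% of all 12125 genes tested (two-sided exact permutation test over 64 assignments within groups, Benjamini-Hochberg adjusted p = 0.0388). The smallest unadjusted p that this exact permutation test can give is 0.0156. The adjusted value also depends on how many genes reach that p. All 13 had peaks in 9 of 9 untreated libraries, among them Kcnj6, Kcnh2, Kcnh4, Kcnk3, Cacnb1, Cacna1c, Kcnj14, Cacna1a, Kcnh3 and Kcnk15. Of the 13, 7 had no RNase H peak, among them Kcnh2, Kcnk3, Cacnb1 and Kcnj14, and in the other 6 the RNase H libraries held 249 to 796 bases in 1 of 3. In none of the 13 did RNase H and untreated libraries overlap, which within each group already follows from their being called at the smallest p. The adjusted p of these 13 is tied to the number of libraries, and 0 members passed without siScramble replicate 2 or 3, without siDDX1 replicate 3, without any 1 of the siEXOSC3 replicates, or with peaks over another gene left out. Nor did any other gene tested pass in these settings. Of the other 4 fully marked members, Kcnj12, Scn3b and Kcnip3 had peaks in 1 RNase H library, and Kcnab2 in all 3.

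The opposite direction was passed by 3 members, beside 2.1% of all genes tested. By share of the covered bases it was passed by 6 of 61 members, beside 556 of 12125 genes. By number of peaks it was passed by 2 of 61, beside 186 of 12125. Cacna1d, an L-type pore, had 4075, 3500 and 4075 bases after RNase H, in the order siScramble, siDDX1 and siEXOSC3, and 0 to 2081 (median 358) in the untreated ones. Cacng2, a gamma subunit that also traffics glutamate receptors, had 3461, 291 and 639 bases and none in any untreated library. Kcnk9, a leak channel, had peaks in all 3 RNase H libraries, 1 of them of 524 bases at the same position, chr15:72344837-72345360, in each, and none in untreated ones (adjusted p = 0.0388 for all 3, exact permutation test). Kcnab1, an auxiliary subunit, likewise had the identical peak of 946 bases at chr3:64983819-64984764 in all 3, which peaks of 3 untreated libraries also met, and did not pass (adjusted p = 0.233, exact permutation test). Kcnip1, another auxiliary subunit, had 1897, 1623 and 1896 bases after RNase H and 0 to 1740 in untreated libraries (adjusted p = 0.0677, exact permutation test). The 3 calls were lost in the same settings as the 13. Both ends of these 2 peaks lay within 10 bases of a restriction cut. Over all RNase H peaks on members, 24.7% had both ends there, against 3.52% of untreated peaks on members, and 20.8% and 7.52% over all peaks of the lists. The RNase H libraries were sequenced more deeply than most untreated ones, and the part of depth in these results was not tested.

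Kcnab2, a potassium channel beta subunit, was marked both ways. It had 361, 2157 and 2353 bases in the libraries labelled siScramble, 5878, 2141 and 4103 in those labelled siDDX1 and 3718, 5815 and 7676 in those labelled siEXOSC3, with 2973, 3967 and 1523 bases after RNase H. The RNase H values lay inside the untreated range (adjusted p = 0.586, exact permutation test). In all, 81 RNase H peaks lay on members and 26 of them met an untreated peak. Of the 34 members with an RNase H peak, 17 had none in the untreated libraries, as had 960 of the 3027 genes with an RNase H peak in the whole annotation. These were 12.4% of members and 4.29% of all genes, and the 17 had a median length of 222 kb. Kcnip4, the longest member at 1135 kb, was among them, with peaks in 2 of 3 RNase H libraries and 0 of 9 untreated ones, as were Kcnma1 (2 of 3) and Cacna2d3 (1 of 3). Kcnq5 and Kcnd2, of 564 and 514 kb, had no peak in any library.

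Across the 3 groups, no member passed by covered bases after adjustment, beside 0% of 11165 genes tested (exact permutation test of the F statistic over the 280 assignments of 9 libraries to 3 groups, smallest possible p = 0.00357). Before adjustment, 2 of 44 members tested had p at or below 0.05, beside 3.09% of all genes, so that the members' share was near the background. It was further above it in 3 other settings. At a −log10 q of at least 5 it was 6 of 37 members beside 288 of 9961 genes. With equal numbers of peaks it was 5 of 38 beside 584 of 10213, and by share of the covered bases 10 of 44 beside 1046 of 11165. With the replicate number as a block it was 0 of 44 beside 57 of 11165. Kcnn1, which encodes a small-conductance calcium-activated potassium channel, had 0 bases in all 3 libraries labelled siScramble, 511, 349 and 0 in those labelled siDDX1, and 1008, 1753 and 2231 in those labelled siEXOSC3 (exact permutation p = 0.0143, adjusted p = 1). Kcnmb4, the neuronal beta subunit of the large-conductance calcium-activated channel, had 0, 1148 and 934, then 718, 0 and 568, then 2108, 2299 and 2678 bases (exact permutation p = 0.0214, adjusted p = 1). Kcnn1 had p = 0.114 with genes extended by 5 kb, and Kcnmb4 had p = 0.829 by number of peaks (same exact permutation test). Both genes were named for their low p, so a separation of labels is partly built into the choice. No share of all genes with such a separation stands beside it, here or for Cacna1b and Cacnb1 below. In both genes all 3 libraries labelled siEXOSC3 lay above the other 6, and by the peak names these would be the siScramble libraries. Their peak numbers of 27391 to 42571 lay within or just above the 23882 to 42170 of the others, and the part of library size was not tested.

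The next 4 members by p were Cacnb3, Kcnab2, Cacna1b and Kcnh3. Cacnb3, a beta subunit, had 0, 938 and 307 bases in the libraries labelled siScramble, 3122, 0 and 1221 in those labelled siDDX1 and 3345, 2020 and 4135 in those labelled siEXOSC3 (exact permutation p = 0.075). Cacna1b had 0, 321 and 1727, then 2403, 2669 and 1912, then 297, 621 and 1664 bases, with the 3 libraries labelled siDDX1 above the other 6 (p = 0.0929 by the same exact test). Kcnh3, an ether-a-go-go-like pore, had 2256 ± 609, 2887 ± 565 and 3392 ± 552 bases (SD, n = 3 each, exact permutation p = 0.1).

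**Figure D5:**
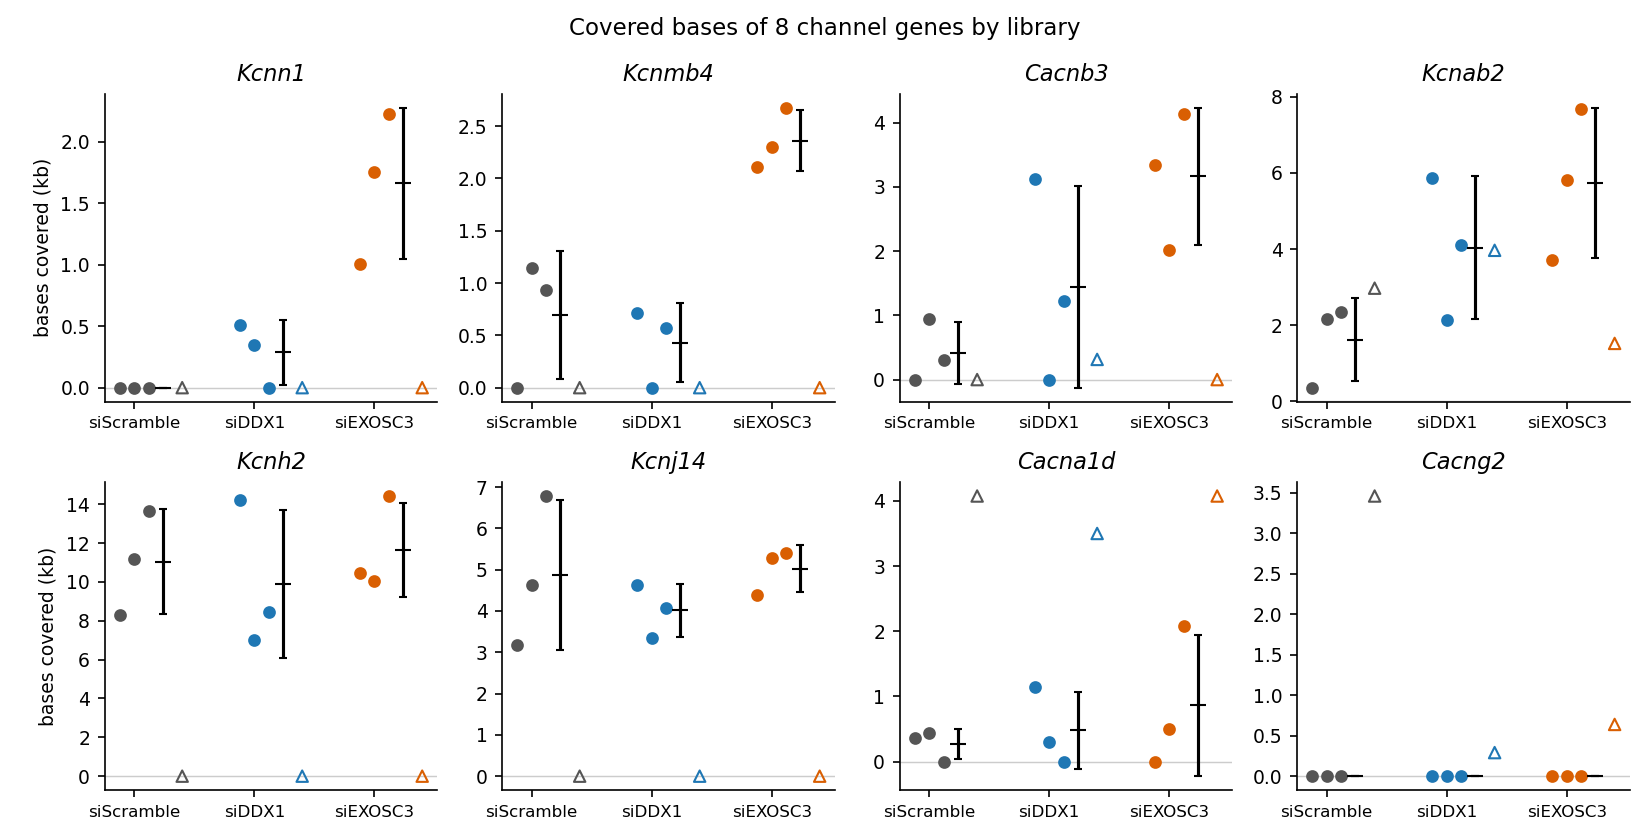
Bases covered by peaks, in kb, for 8 channel genes in each library. Filled circles are the 3 untreated libraries of a group, the black bar with whiskers is their mean ± SD, and open triangles are the RNase H library of that group. Kcnn1 and Kcnmb4 were named for their low p across groups, and there the 3 libraries labelled siEXOSC3 lie above the other 6. In Kcnh2 and Kcnj14 the groups overlap and RNase H libraries are at 0, and in Cacna1d and Cacng2 the triangles lie above all circles.

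Fold enrichment was compared over the 17 members with a peak in all 9 libraries, as log2 of the highest peak of each gene, centred on each library's median. None passed limma's adjusted threshold in any pair, beside 0% of 5868 genes for siDDX1 against siScramble, 0.375% for siEXOSC3 against siScramble and 0.528% for siEXOSC3 against siDDX1. At an unadjusted p of 0.05 the members numbered 0, 1 and 3, beside 7.81%, 14.8% and 16% of all genes. The median differences of the members were −0.06, −0.0096 and 0.03 on the log2 scale, beside 0.0064, −0.0028 and −0.0092 over all genes, with 7, 8 and 9 of 17 members higher. Without the centring, the median of all genes moved to −0.13, 0.13 and 0.26, and 4, 12 and 16 members were then higher, so these directions are relative to each library's median. An exact permutation test of 3 against 3 libraries cannot give a p below 0.1.

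Cacnb1 came closest. Its highest fold was 11.1, 8.28 and 8.44 in the libraries labelled siScramble, 11.7, 9.84 and 12.9 in those labelled siDDX1 and 17.4, 19.0 and 21.2 in those labelled siEXOSC3, and the last 3 lay above the other 6. The log2 difference between the labels siEXOSC3 and siScramble was 0.92 ± 0.22 (SE, limma adjusted p = 0.0685), which by the peak names would compare siScramble with siDDX1. That peak is the one at the end of the gene that also meets Arl5c. With peaks over another gene left out, the difference was −0.0061 (limma adjusted p = 0.994), so the value rests on the shared region. Peaks of that region partly lie beyond the extended gene, and over its whole width the highest folds were 11.1, 13.01 and 12.7, then 11.7, 9.84 and 12.9, then 17.4, 19.0 and 21.2. Without siScramble replicate 1 the difference was 1.16 (limma adjusted p = 0.0225). Kcnj12 had the lowest p between the labels siEXOSC3 and siDDX1, at −0.50 ± 0.19 (SE, limma adjusted p = 0.199), and Cacna1a followed at 0.44 ± 0.19 (SE, limma adjusted p = 0.248). Between the labels siDDX1 and siScramble, Cacna1a gave −0.30 ± 0.19 and Kcnh3 −0.37 ± 0.24 (SE, limma adjusted p = 0.702 and 0.726). Kcnk3 gave −0.35 ± 0.21 between siEXOSC3 and siScramble (SE, limma adjusted p = 0.461).

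Regions called in 3 of 3 libraries of 1 group and 0 of 3 of another were rare over members, as over all genes. Of the 317 regions, 3 were called in all libraries labelled siEXOSC3 and none labelled siScramble (beside 0.54% of all regions on genes), 2 in the reverse direction (beside 0.505%) and 1 in siEXOSC3 and not siDDX1 (beside 0.504%). None was found for siDDX1 and not siScramble (0.205% of all regions), siScramble and not siDDX1 (0.391%), or siDDX1 and not siEXOSC3 (0.401%). These counts of 0 to 3 carry no test of their own, and the comparisons share libraries.

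Cacng7, a gamma subunit, held 2 of these regions. The first lay 0.779 kb after its annotated start, at chr7:3333697-3333969, and was called in the 3 libraries labelled siEXOSC3, at folds of 5.34, 4.67 and 4.32, and in no other of the 12 libraries. It is shown because it alone separated 1 label from both others, 5′ to 3′ on the plus strand with CG dinucleotides in capitals.
Cacng7: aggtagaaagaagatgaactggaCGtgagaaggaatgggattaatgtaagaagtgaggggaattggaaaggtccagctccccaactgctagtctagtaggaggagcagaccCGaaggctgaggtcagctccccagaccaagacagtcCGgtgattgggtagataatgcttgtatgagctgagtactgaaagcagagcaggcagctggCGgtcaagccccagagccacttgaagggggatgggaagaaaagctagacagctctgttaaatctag

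The 273 bases hold 4 CG dinucleotides at 50.9% GC. The second Cacng7 region, at chr7:3366058-3366831 near the end of the gene, was called in the 3 libraries labelled siEXOSC3 (5.29, 4.10 and 4.50) and in siDDX1 replicate 2 (5.53). Kcnab2 held the remaining one, an intronic region at chr4:151811430-151812098. In the reverse direction, an intronic region of Kcnj6 at chr16:95170266-95172092 had folds of 5.27, 6.19 and 6.63 in the libraries labelled siScramble, and 7.42 in siDDX1 replicate 1. Kcnq1, the delayed rectifier of heart and inner ear, held another at chr7:150421676-150422218, with 4.68, 3.72 and 5.42 in the libraries labelled siScramble and 3.89 in siDDX1 replicate 3. None of these 5 regions met a peak of an RNase H library.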

How the data were processed

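DRIP-seq peak lists of 12 libraries were analysed, and the input sample was not analysed here. Per the study's methods and the submitters' processing notes, the authors aligned reads to build mm9 with Bowtie2 2.4.4 and called peaks in each library with MACS2 2.2.6 against the input, without pooling replicates. The deposited lists give each peak's fold enrichment, a linear ratio of pileup to local background with 1 added to both, and the −log10 of its p-value and q-value. Fold enrichment and −log10 q, both made by the authors, were used to compare and filter peaks, and −log10 p to recover relative depth. The read counts that the authors tested with DESeq2 were not used here, so a change of signal within a called peak shows only through its width and fold.

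Genes were the protein-coding records of GENCODE vM1, extended by 1 kb, and a start was the annotated gene start ± 1 kb. The length expectation was the share of all genes in 20 bins of length. Covered bases were tested with exact permutation tests (F statistic over 280 assignments of libraries to groups, and RNase H over 64 assignments within groups), and log2 fold with limma 3.58.1 in R 4.3.3, on all genes with a peak in all 9 untreated libraries, with Benjamini-Hochberg adjustment over all genes tested at 0.05. Python 3.11.15 with numpy 2.4.6 and scipy 1.17.1 was used, and the code was tested on simulated data. Named genes were the members with start peaks in 9 of 9 libraries, the 6 longest and the 3 longest without an untreated peak, the 6 with the lowest p across groups, the 3 with the lowest limma p in each pair, the 2 all-or-none regions of highest fold in each direction and up to 6 with peaks in at least 2 RNase H libraries. Members, lists and named-gene rules were chosen with earlier results of these data known. Genes named beyond that rule were chosen after their values were seen. Sequences were read from the NCBIM37 genome, which is mm9, and some genes and sequences are not reported here. Peak ends within 10 bases of a restriction cut were counted as lying on it. Alternatives in extension, peak threshold, library size, overlap, amount, centring, replicate block and libraries left out are given in the closing section. Replicates came from 3 plates seeded per condition, which the methods call biological replicates, so p-values measure the spread between plates of 1 cell line.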

Additional observations from a re-analysis of the deposited data

How the results depend on the processing

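The ratio of occupied members to the length expectation stayed within 1 SD of its value under each alternative tried, and leaving out a library moved it between 0.539 and 0.561. Number of occupied members per untreated library was 37.6 with genes extended by 5 kb, 24 with −log10 q of at least 5 and 25.8 with equal numbers of peaks. With −log10 q of at least 5, members with a start peak fell to 8.33 and their ratio to 0.324. With any annotated transcript start, an alternative chosen after seeing the data, as was pileup over background without the added 1, the values moved by less than 1 SD.

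RNase H lowered 0 members when peaks over another gene were left out, beside 0 of 10854 genes tested. There the smallest adjusted p of the exact permutation test was 0.0524. With 1 library left out it lowered 0 to 14 members, beside 0 to 5255 genes. Members and genes lowered were both 0 without siScramble replicate 2 or 3, without siDDX1 replicate 3 and without each siEXOSC3 replicate. There 48 assignments allow no p below 0.0208, and the smallest adjusted p were 0.0501 to 0.0576. With a 5 kb extension 17 of 71 members were lowered and 4 raised, beside 5332 and 296 of 13157 genes. At a −log10 q of at least 5 these were 9 and 4 of 49, beside 3583 and 178 of 10690. By number of peaks they were 9 and 2 of 61, beside 4546 and 186 of 12125. By share of the covered bases they were 10 and 6 of 61, beside 4819 and 556 of 12125. Members at an unadjusted p of 0.05 across the groups numbered 1 of 51 with a 5 kb extension (beside 351 of 12062 genes). They were 6 of 37 with −log10 q of at least 5 (beside 288 of 9961 genes). With equal numbers of peaks they were 5 of 38 (beside 584 of 10213). By share of the covered bases they were 10 of 44 (beside 1046 of 11165 genes), and with 1 library left out 2 to 5 (beside 227 to 994 genes). Without siScramble replicate 1 they were 5 of 44 (beside 760 of 11143 genes). Without siScramble replicate 3 they were 4 of 44 (beside 260 of 11031) and without siDDX1 replicate 1 they were 4 of 44 (beside 994 of 11013). Kcnn1 had exact permutation p of 0.114 with 5 kb and Kcnmb4 0.829 by number of peaks. None passed after adjustment in any of these settings.

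The labels do not say what a replicate number shares, and the numbers were not treated as pairs, since not every same-numbered pair correlated above 0.1. Deviations of same-numbered libraries correlated from −0.108 to 0.134 (mean 0.035), those of other pairs from −0.214 to 0.165 (mean −0.017), and in 12 of 18 comparisons, each among 3 candidates, the own number was highest, a hint of shared numbers from the data and not from the design. With the replicate block, 0 of 44 members reached an unadjusted p of 0.05 across the groups, beside 57 of 11165 genes, and no call of limma over members changed.

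For siEXOSC3 against siScramble, 0 to 1 members passed limma with 1 library left out, the 1 being Cacnb1 without siScramble replicate 1 (1.16 log2, limma adjusted p = 0.0225). Cacnb1 turned negative with a 5 kb extension (−0.40 for siDDX1 minus siScramble and −0.18 for siEXOSC3 minus siScramble), by peak midpoint (−0.012, and −0.20 against siDDX1) and without peaks over another gene (−0.0061, and −0.17 against siDDX1).

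All-or-none regions were few and moved freely. With −log10 q of at least 5, siScramble and not siDDX1 gave 1, siEXOSC3 and not siScramble 0, and its reverse 0. With equal numbers of peaks, siDDX1 and not siScramble gave 1, siEXOSC3 and not siScramble 1, its reverse 1, and siEXOSC3 and not siDDX1 0. With peaks up to 1 kb apart merged, the first gave 1, siScramble and not siEXOSC3 1, and siEXOSC3 and not siDDX1 3. Leaving out 1 library gave 0 to 7 for siDDX1 and not siScramble, 0 to 2 for its reverse, 3 to 8 for siEXOSC3 and not siScramble, 2 to 8 for its reverse, 1 to 6 for siEXOSC3 and not siDDX1 and 0 to 5 for its reverse. The cause was not tested, other than that a group with 1 library fewer asks less of a region. No share over all genes stands beside the counts in these settings, so they cannot be read as a trait of members. Peak lists hold called regions only, so signal below the threshold is not seen.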
